A study of Oreochromis niloticus with 5 samples.

Results

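Here 3 fast skeletal myosin light chains of Nile tilapia (Oreochromis niloticus) were followed in fast muscle: mylpfa, the fast regulatory (phosphorylatable) light chain, and mylz3 and myl1, essential light chains of the fast fibre. They were taken by their transcript identifiers in the deposited table (rna7931, rna64962 and rna45888), and they are 3 of the 42624 genes to which a listed transcript could be assigned. The data are RNA-Seq libraries from 5 full-sib males, named M1 to M5, with 1 library per fish and 1 condition. No treatment is named for any fish. They came from the first generation bred in captivity, and their parents were collected as eggs brooded by wild females. The fish were reared together, and the labels give their age as 5 months. The study's methods state a longer rearing time, and its sampling list gives M3 as the heaviest fish. Body weight was not compared with the levels. White muscle was cut from above the lateral line on the left side, ribosomal RNA was depleted, and directional libraries were sequenced as paired-end reads. The library totals lay between 26750559 counts in M1 and 90337019 in M2, and the raw counts of the light chains between 94962 and 1719818 fragments. The study reports a lower overall alignment rate, and a smaller part of fragments assigned, for M1 than for each other fish. The question set here is how abundant each light chain transcript was, how the regulatory chain was balanced against the essential chains, and how steady that balance was between fish.

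Muscle myosin is built from a pair of heavy chains, and the neck of each heavy chain head carries one essential and one regulatory light chain. The essential chain stiffens the lever arm that moves actin. The regulatory chain lies next to it, and myosin light chain kinase phosphorylates it in response to calcium and calmodulin, which in vertebrate skeletal muscle modulates force rather than switching contraction on. In mammals a single gene, MYL1, yields a long and a short fast essential chain from alternative start sites. The muscle mass used here is mostly made of fast glycolytic fibres, and light chains are among its most abundant proteins.

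All 3 genes were listed with 1 transcript each, on different linkage groups and on the minus strand of the assembly O_niloticus_UMD_NMBU. The mylpfa gene lay on linkage group 4 from 29111970 to 29115997, with 7 exons and a transcript of 1388 bases. Its distance from the nearer end of the fast myosin heavy chain genes LOC100712344, LOC100706261 and LOC100707599 on the same linkage group was 5554079 bases. The mylz3 gene lay on linkage group 23 from 22142389 to 22145383, with 6 exons and a transcript of 1094 bases. The myl1 gene lay on linkage group 16 from 12696249 to 12701563, also with 6 exons, and its transcript measured 1205 bases. No other listed feature overlapped any of the 3 genes, so none of them shared fragments with an overlapping transcript. Fragments that could align to a more distant related gene were not examined.

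The essential chain genes had the same exon plan. From the 5′ end, the exons of mylz3 measured 142, 28, 144, 171, 78 and 531 bases, and those of myl1 measured 235, 28, 144, 174, 78 and 546 bases. Exons 2, 3 and 5 were of equal length in both genes, 3 of 6 exons and 250 bases together. The first exon of myl1 was the longer. The exons of mylpfa measured 148, 99, 76, 105, 79, 49 and 832 bases, and the last took 59.9% of the transcript, against 48.5% in mylz3 and 45.3% in myl1. Its paralog mylpfb, on linkage group 8, had exons of 149, 99, 181, 79, 49 and 980 bases. The third exon of mylpfb was as long as exons 3 and 4 of mylpfa joined, at 181 bases.

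**Figure D1:**
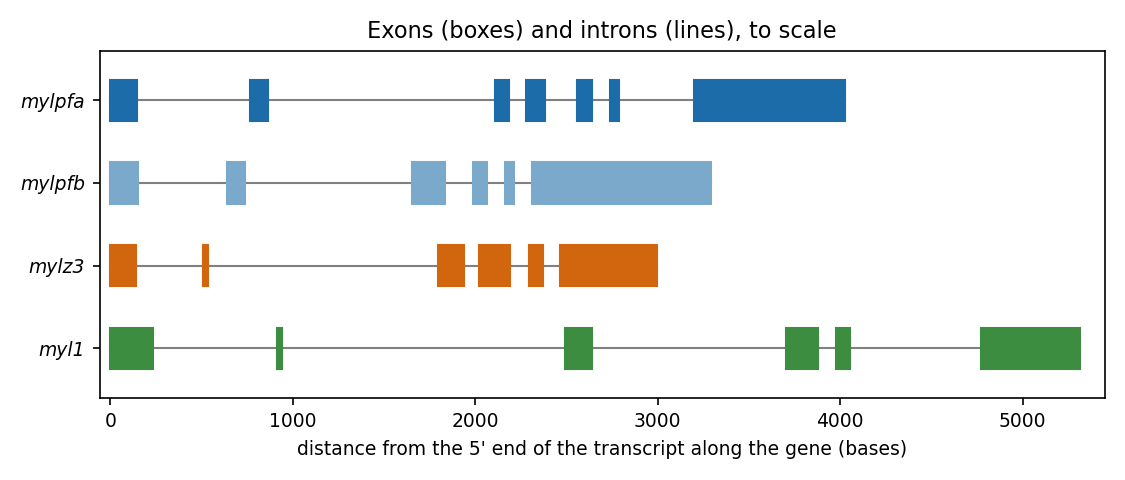
Exons (boxes) and introns (lines) of mylpfa, mylpfb, mylz3 and myl1, drawn to scale against the distance in bases from the 5′ end of the transcript. mylz3 and myl1 have 6 exons each, nearly equal in size except the first, which is longer in myl1, while mylpfa has 7 exons and mylpfb 6.

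The regulatory chain mylpfa was the most abundant of the 3 genes in every fish. Values are counts divided by the size factor of the library, named normalized counts here, and are listed from the lowest fish to the highest. They were 574439 in M3, 746056 in M4, 750624 in M5, 780607 in M2 and 852778 in M1, or 740901 ± 102377 (SD, n = 5 fish). M3 was the lowest fish and M1 the highest, a ratio of 1.49 between them. The highest fish depended on the scaling. As a share of library counts it was M5, at 1.95% against 1.94% in M1, and the ratio to M3 was 1.35. The mean of mylpfa ranked 2 among all listed transcripts, and its rank in single fish lay between 2 and 3. The transcript alone took 1.81% ± 0.211 (SD, n = 5) of the counts of a library. A fragment that matches several listed features enters this total once for each, so the share of fragments is larger than that.

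The essential chain mylz3 held the middle place and had the smallest spread over the 5 fish, though not without M3. Its normalized counts were 289304 in M5, 327648 in M3, 330167 in M2, 344089 in M1 and 367953 in M4, or 331832 ± 28652 (SD, n = 5). M5 was the lowest fish and M4 the highest, and the other fish lay within a narrow band between them. The rank of mylz3 among all listed transcripts lay between 8 and 22 in single fish. These ranks count each listed isoform of a gene separately, so they are not ranks among genes.

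The essential chain myl1 was the lowest of the 3 and varied most. Its normalized counts were 102879 in M3, 124150 in M4, 155063 in M5, 159668 in M2 and 163050 in M1, or 140962 ± 26314 (SD, n = 5). M3 and M4 were below the other fish, which lay close together. By mean normalized count myl1 ranked 64 among all listed transcripts, isoforms included, and between 35 and 67 in single fish. The ranges of the 3 genes did not overlap. The libraries are of whole muscle tissue, so fewer fast fibres and less RNA per fibre cannot be told apart.

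Levels of different genes were compared per kilobase of the listed transcript, because a longer transcript yields more fragments. On this scale mylpfa had 533790 ± 73758, mylz3 303320 ± 26190 and myl1 116981 ± 21837 normalized counts per kb (SD, n = 5). The order mylpfa, mylz3, myl1 held in 5 of 5 fish on both scales. The rank per kb among all listed transcripts, isoforms included, was 2 for mylpfa, 8 for mylz3 and 28 for myl1. In single fish mylpfa ranked between 1 and 3 per kb. In TPM, which scales the per-length values to a fixed total, the 3 genes together held 55636 ± 3207 (SD, n = 5). Fragments that match several listed features enter that total more than once. These TPM are therefore lower than they would be with each fragment counted once.

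**Figure D2:**
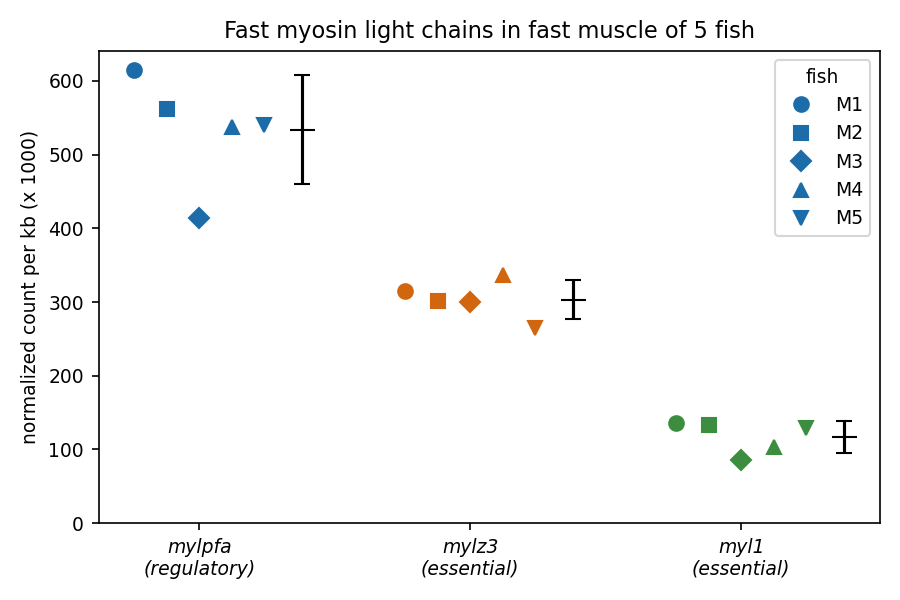
Normalized counts per kilobase of transcript (y axis, in units of 1000) of mylpfa, mylz3 and myl1 (x axis), with 1 symbol per fish and the mean ± SD over 5 fish at the right of each gene. The fish of mylpfa lie between 413861 and 614393, those of mylz3 between 264446 and 336337 and those of myl1 between 85377 and 135311, without overlap.

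The regulatory chain exceeded the sum of both essential chains per kb in 5 of 5 fish, by a narrow margin. The ratio of mylpfa to mylz3 plus myl1 was 1.08 in M3, 1.22 in M4, 1.29 in M2, 1.37 in M1 and 1.38 in M5. M3 was nearest to an even balance, and M1 and M5 were farthest from it. The mean log2 ratio was 0.34 ± 0.15 (SD, n = 5), a ratio of 1.26 (exact two-sided sign-flip permutation test, p = 0.0625 before and after Benjamini-Hochberg correction over 4 ratios). This is the smallest p that 5 fish allow, so the test could not pass 0.05. The ratio is taken within a fish, and the scaling between libraries cancels in it. It does depend on the length correction. The mean log2 ratio was 0.64 without one and 0.28 with 200 bases, a stand-in for the unknown fragment length, subtracted from each transcript.

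As shares of the 3 light chains per kb, mylpfa held 55.8% ± 2.50, mylz3 32.02% ± 3.83 and myl1 12.2% ± 1.498 (SD, n = 5). The share of mylpfa was 51.8% in M3, 55.0% in M4, 56.4% in M2, 57.7% in M1 and 57.9% in M5. It was above an even split in each fish.

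**Figure D3:**
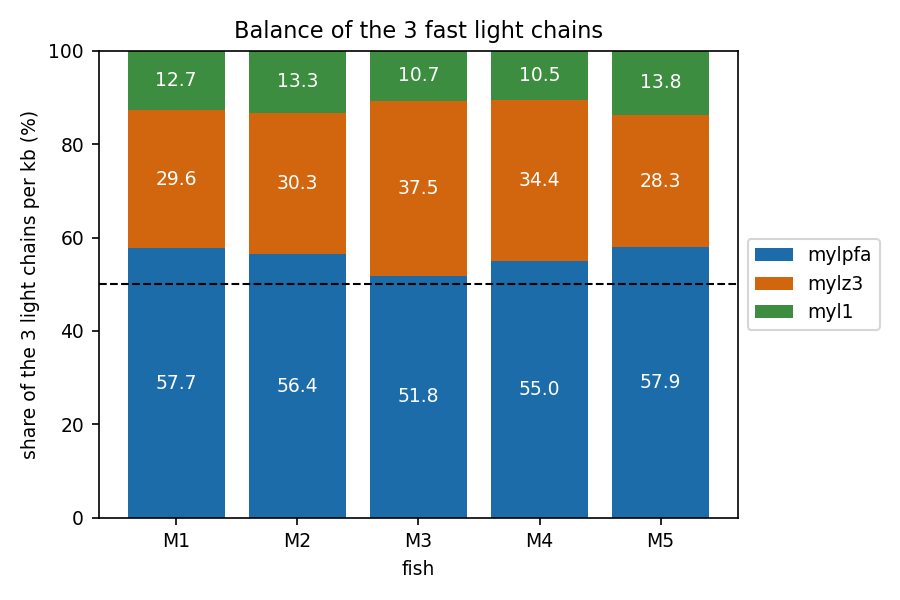
Share (%, y axis) of mylpfa, mylz3 and myl1 in the summed normalized counts per kb of the 3 genes for each fish (x axis), with a dashed line at an even split. mylpfa lies between 51.8% and 57.9%, and the part of mylz3 is largest in M3, at 37.5%.

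Between single genes, mylpfa and myl1 kept the steadiest proportion over the 5 fish, with M3 the lowest fish of both. The SDs of the ratios between single genes were not taken with a fish left out. The per-kb ratio of mylpfa to myl1 was 4.20 in M5, 4.24 in M2, 4.54 in M1, 4.85 in M3 and 5.22 in M4, with a mean log2 ratio of 2.20 ± 0.13 (SD, n = 5). The ratio of mylpfa to mylz3 was 1.38 in M3, 1.598 in M4, 1.86 in M2, 1.95 in M1 and 2.05 in M5, with a mean log2 ratio of 0.81 ± 0.23 (SD, n = 5). It was lowest in M3, where mylpfa was below its level in the other fish and mylz3 was not.

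The proportion of the essential chains to each other was the least steady. The per-kb ratio of mylz3 to myl1 was 2.06 in M5, 2.28 in M2, 2.32 in M1, 3.26 in M4 and 3.51 in M3, with a mean log2 ratio of 1.39 ± 0.34 (SD, n = 5). The share of myl1 in the essential chains was 22.2% in M3, 23.4% in M4, 30.1% in M1, 30.5% in M2 and 32.7% in M5. M3 and M4 thus held less myl1 among their essential chains than the other fish. All 3 of these ratios were above an even ratio in 5 of 5 fish, each with p = 0.0625 before and after the correction, the smallest possible in the exact sign-flip permutation test. Differences between these SDs were not tested.

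Over the 5 fish the sum of the essential chains varied less than either gene alone. A sum of unlinked genes can do this too, and a link between these genes was not tested. The sum is given per kb. It was 384873 in M3, 393130 in M5, 434302 in M2, 439366 in M4 and 449835 in M1 normalized counts. Its coefficient of variation (CV, the SD over the mean) was 6.96%. The CV was 8.64% for mylz3, 18.7% for myl1 and 13.8% for mylpfa. The order of the sum and mylz3 turned without M5, at 6.76% for the sum and 5.39% for mylz3, and without M4, at 7.57% and 7.27%. Counting error alone would give at most 0.139% for mylpfa, 0.219% for mylz3 and 0.325% for myl1 in any library.

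Set against all genes over the 5 fish, mylz3 had a small spread and the other light chains lay nearer the middle. Over the fish, log2(normalized count + 1) had an SD of 0.21 for mylpfa, 0.13 for mylz3 and 0.29 for myl1. The median over the 7209 genes with a mean of at least 100 normalized counts was 0.27. Of these genes, 8.17% had a smaller SD than mylz3, 32.2% a smaller one than mylpfa and 54.2% a smaller one than myl1. Much of the spread of mylpfa and myl1 came from M3. On the log2 scale M3 lay at -0.36 from the mean of mylpfa and at -0.43 from that of myl1, but at -0.01 from that of mylz3. Without M3 the SD was 0.09 for mylpfa, 0.15 for mylz3 and 0.18 for myl1, so mylpfa was then the steadiest, and that of the balance was 0.08 in place of 0.15. For mylz3 the corresponding fish was M5, at -0.19, and without it the SD was 0.08. Without M3, 4.51% of the genes had a smaller SD than mylpfa, 17.1% a smaller one than mylz3 and 26.7% a smaller one than myl1.

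**Figure D4:**
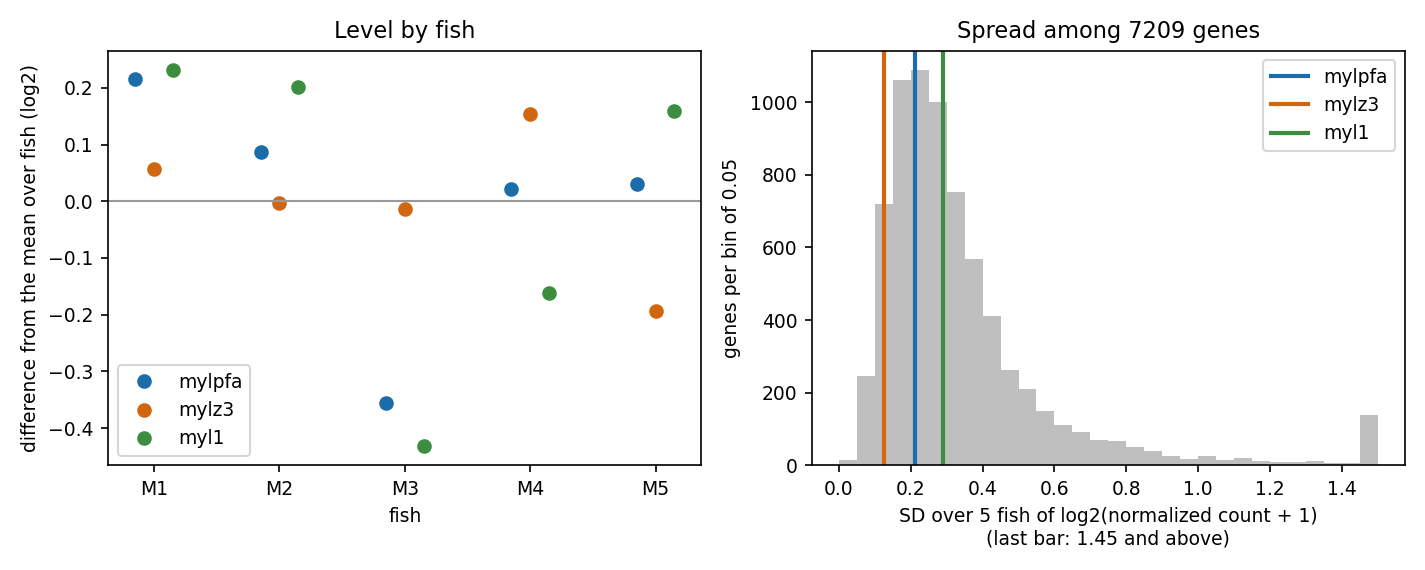
Left, the difference of each fish (x axis) from the mean over fish of log2(normalized count + 1) for mylpfa, mylz3 and myl1; right, the number of genes by the SD of this value over 5 fish, for 7209 genes, with the 3 light chains as vertical lines. M3 lies at -0.36 for mylpfa and -0.43 for myl1, and the lines stand at 0.21, 0.13 and 0.29.

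The genes whose pattern over the 5 fish was most like that of each light chain were sought among 1456 other genes with a mean of at least 1000 normalized counts. Likeness was the SD over fish of the log2 ratio to the light chain, so a small value means a steady proportion. The nearest genes to mylpfa were eef1b2, a subunit of the translation elongation factor complex, at 0.024, and rps9, rack1, rpl9 and rpl3, at 0.051, 0.052, 0.055 and 0.067. Of these, rps9, rpl9 and rpl3 encode ribosomal proteins and rack1 a scaffold bound to the ribosome. The share of such genes among the 1456 was not counted. The normalized counts of eef1b2 were 2797 in M3, 3676 in M4, 3818 in M5, 3888 in M2 and 4287 in M1, with M3 lowest as for mylpfa.

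The nearest gene to mylz3 was aldoab, a muscle aldolase of glycolysis, at 0.047. The next were LOC100695463, LOC100699180, rps12 and hspa8, the constitutive heat shock cognate, between 0.061 and 0.072. The nearest gene to myl1 was myoz1a, which encodes a myozenin of the Z-disc, at 0.054. Its normalized counts were 73658 in M3, 82489 in M4, 105868 in M2, 107442 in M1 and 108361 in M5, low in M3 and M4 as for myl1. The next were gtpbp4 and ddx21, both nucleolar proteins of ribosome assembly, dhrs7cb, and ddit3, a stress-response transcription factor, between 0.063 and 0.071.

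By the same measure, myl1 stood at place 78 from mylpfa, with 5.29% of the 1456 genes nearer, and mylz3 at place 317, with 21.7% nearer. From mylz3, myl1 stood at place 769, with 52.7% nearer, and from myl1, mylz3 stood at place 546, with 37.4% nearer. The essential chains were thus nearer to mylpfa than to each other. The median SD of the log2 ratio over these genes was 0.35 to mylpfa, 0.33 to mylz3 and 0.39 to myl1. These values rest on 5 fish that share the library scaling, and they are a description.

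The partners of the light chains in the filaments differed widely in how steady they were against them. The fast myosin heavy chain LOC100707599 had an SD of the log2 ratio to mylpfa of 1.07, and LOC100712344 one of 0.88, while LOC100706261, a lower copy of the same cluster, had 0.18. Summed over these 3 heavy chains, the level was 205818 in M3, 209896 in M2, 217734 in M5, 299634 in M1 and 310472 in M4 normalized counts per kb. The SD of the log2 ratio of mylpfa to this sum was 0.25, lower than to LOC100707599 or LOC100712344 alone. Per kb, mylpfa and mylz3 were each above this sum in 5 of 5 fish and myl1 was below it in 5 of 5. The ratio of mylpfa to the 3 heavy chains was 2.19 ± 0.383, between 1.73 in M4 and 2.68 in M2, and that of mylz3 plus myl1 was 1.73 ± 0.270 (SD, n = 5), between 1.42 in M4 and 2.07 in M2. Other myosin heavy chain genes were not added, so the ratios are upper values for fast myosin as a whole. The heavy chain transcripts were each several times longer than those of the light chains, and the division by length weighs more on them.

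Against the thin filament, troponin T kept a steadier proportion to each light chain than actin or tropomyosin did. The SD of the log2 ratio of fast troponin T (LOC100707421) was 0.13 to mylpfa, 0.12 to mylz3 and 0.25 to myl1. For skeletal actin (acta1b) it was 0.33, 0.21 and 0.43, and for tropomyosin (tpm1) 0.28, 0.19 and 0.37. The level of acta1b was 780125 normalized counts in M5 and at least 1119842 in each other fish. These SDs were not taken with a fish left out, so how far their order rests on M5 was not tested. The per-kb ratio of mylpfa to acta1b was 0.611 in M3, 0.735 in M4, 0.744 in M1, 0.764 in M2 and 1.15 in M5, so mylpfa exceeded actin per kb in M5 alone. Fast myosin-binding protein C (mybpc2b), a thick filament protein, had SDs of 0.21, 0.31 and 0.30. The symbols tnnc2 and tnni2, fast troponin C and troponin I, matched no gene of the symbol table.

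Among the genes whose symbol marks a myosin light chain, 11 in all, the 3 fast genes held nearly the whole level. They made up between 99.842% and 99.953% of the summed normalized counts per kb of all 11 genes in single fish. The smooth muscle regulatory chain myl9b had 510 ± 86.6 normalized counts (SD, n = 5), and the nonmuscle regulatory chain myl12.2 had 230 ± 69.2. Another 5 genes had means under 10 normalized counts. They were myl2a and myl2b, regulatory chains of slow and cardiac muscle in mammals, myl13, the smooth and nonmuscle essential chain gene myl6 and the atrial gene myl7. No fragment of myl7 was counted in any fish and 1 was counted for myl2a, and where no fragment was counted up to 3 are still allowed in a library. Light chain genes that carry only a LOC symbol would not be among the 11.

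The exception between fish was mylpfb, the paralog of the regulatory chain. Its normalized counts were 49.0 in M2, 73.7 in M3, 136 in M5, 291 in M4 and 1740.2 in M1. M1 was far above the other fish. The mean was 458 over all fish and 137 without M1. By the study's report the M1 library also had the lowest alignment rate, and the part of this in the M1 values was not tested. Even in M1, mylpfb was only 0.184% of the level of both paralogs per kb, and between 0.00567% and 0.0352% in the other fish. Slow fibre markers were also examined in M1. The sum of the slow fibre list, of which 7 of 13 symbols matched, was 1373 normalized counts in M1 and between 213 and 442 in the other fish. Of the 9 genes of this list with a count, 3 were highest in M1. The slow myosin-binding protein C gene mybpc1 carried most of the sum in M1, with 1126 normalized counts in M1 and at most 13.3 elsewhere. Without it the list summed to 247 in M1 and to 429 in M4, the highest fish. The slow and cardiac troponin C gene tnnc1a had 42.8 in M1 and at most 7.25 elsewhere. The calcium pump genes atp2a2a and atp2a2b were highest in M4, at 285 and 132, against 122 and 70.8 in M1, and the slow troponin I gene tnni1a had 1.65 in M1 and 9.97 in M5. A gene of the fast fibre list, the calcium pump atp2a1, had 299.6 in M1 and 53.2 in M4, and M2, M3 and M5 did not exceed 19.9. The matched light chains of the list, myl2a, myl2b and myl13, had at most 1.65 normalized counts in M1. The symbols smyhc1, myh6, myh7, myl3, myl10 and tpm3 of the list matched no gene. Its myosin heavy chains and these other light chains were therefore not measured. The part of such fibres in the level of mylpfb was not tested.

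**Figure D5:**
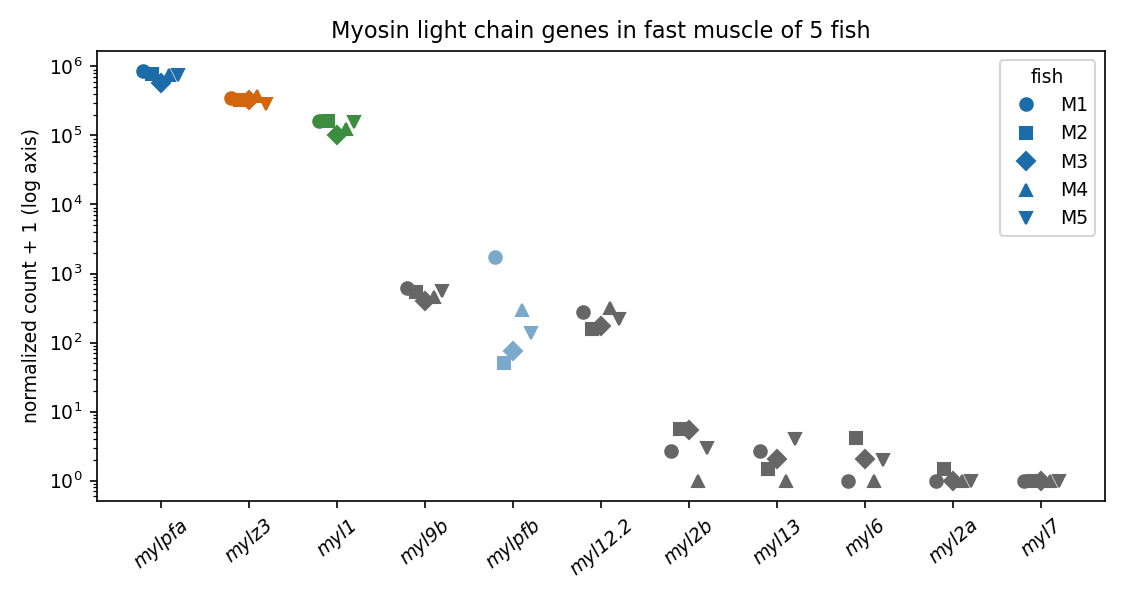
Normalized counts plus 1 (log axis) of the 11 myosin light chain genes (x axis), with 1 symbol per fish. mylpfa, mylz3 and myl1 lie at 102879 or above, the next genes lie at 1740.2 or below, and mylpfb is highest in M1.

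Of the genes found by symbol for enzymes that act on the regulatory chain, the kinase gene mylk4a had the highest level. These are 3 kinase genes and a pair of phosphatase subunits, and enzymes whose genes carry another symbol are not among them. The level of mylk4a was 4274 ± 1262 normalized counts (SD, n = 5), or 1022 ± 302 per kb, lowest in M1 at 2749 and highest in M2 at 5825. The other kinase genes were lower, mylka at 264 ± 26.1 and mylk4b at 53.7 ± 30.0 normalized counts. The targeting subunits of the myosin phosphatase, which removes the phosphate, had 1095 ± 680 (ppp1r12b) and 128 ± 26.5 (ppp1r12a) normalized counts. ppp1r12b was highest in M4, at 2209, and lowest in M2, at 421. The symbol ppp1cb, the catalytic subunit, matched no gene.

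The label of the tissue was checked on marker lists. The fast fibre list summed to between 2097089 and 2665565 normalized counts per fish, with 7 of 10 symbols matched. It holds mylpfa, mylz3 and myl1, and without them it summed to between 1092123 and 1470572. The parvalbumin genes pvalb5, pvalb8 and pvalb9 of this list had no count. Among the other parvalbumins, pvalb7 lay between 40.4 in M2 and 3431.5 in M4, and pvalb6 did not exceed 41.2. The other lists summed to at most 3.63 for cardiac muscle, between 1666 and 2603 for smooth muscle and between 117 and 248 for red blood cells. Adipocytes had between 1235 and 2056, fibroblasts between 16335 and 46489 and endothelium between 819 and 1317. No count was seen for fgb, the matched symbol of the liver list. Only 3 of 5 symbols matched for red blood cells and 2 of 4 for adipocytes. The globins hbaa and hbba and the adipocyte genes plin1 and adipoq were therefore not measured. Of the 8 lists with a count, 5 were highest in M1, those for slow fibre, smooth muscle, adipocytes, fibroblasts and endothelium. The share of all genes that were highest in M1 was not counted. The sums were not taken with another scaling between libraries, so how far this order rests on the size factors was not tested. The slow fibre list was highest in M1 only with mybpc1, and without it M4 was highest, at 429 against 247 in M1. The adipocyte sum was nearly all fabp4a, at 2056 in M1 and 2016 in M5, and cidec had no count in M1. The part of these lists in the light chain levels was not tested.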

How the data were processed

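The authors trimmed the reads with BBDuk, aligned them with HISAT2 2.1.0 to the Nile tilapia genome and counted fragments per listed feature with featureCounts, so the deposited values are raw counts. Primary alignments were counted, and a fragment could match several features. Per-kilobase values used the deposited length of each transcript. Of 80416 features, 79924 were assigned to a gene of the RefSeq table of O_niloticus_UMD_NMBU by coordinates. Counts (0 columns unused) were divided by DESeq2 1.42.0 size factors in R 4.3.3. TMM factors came from edgeR 4.0.16. Tables, tests and figures were made with scipy 1.17.1, pandas 2.3.3, matplotlib 3.10.9 and numpy 2.4.6 in Python 3.11.15. Spread is the SD of log2(normalized count + 1), with 1 transcript per gene. With 1 condition, no groups were compared. Ratios were tested by exact sign-flip permutation over 5 fish. Dixon's ratio, with a critical value of 0.71, was used to find a fish far from the rest.

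The genes named were the 3 members, all genes with light chain symbols, listed filament partners and light chain enzymes, and the 5 nearest genes to each member. Genes tbc1d10b, pheta2, lancl1, map2 and cps1 are neighbours, and the other genes named come from the marker lists, after their values were seen. The members and lists were chosen with earlier results of these data known. The calculations were tested on simulated data. Without molecular identifiers, PCR copies cannot be told from separate molecules. The counting errors, and the limit given where no fragment was counted, cover counting error only. The SDs are the spread between fish. The fish are separate animals of 1 family. No sequences are printed.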

Additional observations from a re-analysis of the deposited data

Results flagged for a closer look

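Of 23 sets of 5 values examined for a single fish far from the others, 1 passed Dixon's critical ratio, and chance gives about 1.15. It was the regulatory chain paralog mylpfb, whose normalized count was 1740.2 in M1 and 291 in the next fish, M4. Its ratio of 0.857 was taken on the normalized counts and not on their log2 values, where a high fish stands out less. The levels of mylpfa, mylz3 and myl1 and the ratios between them did not pass the critical ratio. Marker genes that stood high in M1 were not among the 23 sets, such as mybpc1, with 1126 in M1 and 13.3 in M4. The number of passes therefore holds only for the sets examined.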

How the results depend on the processing

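No paired comparison of groups was possible because the 5 fish form a single group, and the ratios between genes were taken within each fish. Each light chain has 1 listed transcript, so the alternative of averaging transcripts changed nothing and was not run. The order mylpfa, mylz3, myl1 and the excess of mylpfa over both essential chains kept their direction in every alternative run, and with 4 fish the smallest p is 0.125. In other units the levels were 18178.5 (mylpfa), 8142 (mylz3) and 3459 (myl1) CPM with TMM factors, 18134.9, 8132 and 3452 CPM of the library total, and 31088, 17734 and 6814 TPM. These CPM and TPM are understated, because their totals count a fragment once for each feature it matches. The spread fell with regularized log values, which are shrunk by construction, to 0.14 for mylpfa, 0.085 for mylz3, 0.19 for myl1 and 0.096 for the balance. The share of genes with a smaller spread was 47.2% for mylpfa and 41.8% for mylz3 with no filter, which brings in genes with no counts, and 18.0% for mylpfa and 43.9% for myl1 with CPM of the library total, where the cause was not tested. With each fish left out, the levels lay between 712931 and 782516 for mylpfa, 322802 and 342464 for mylz3, and 135440 and 150483 for myl1. The mean log2 balance lay between 0.30 and 0.39. The spread lay between 0.089 and 0.25 for mylpfa, 0.077 and 0.15 for mylz3, 0.18 and 0.32 for myl1, and 0.079 and 0.17 for the balance. The share of genes with a smaller spread lay between 4.51% and 50.9% for mylpfa, 3.93% and 17.1% for mylz3, and 26.7% and 67.7% for myl1. For mylpfa and myl1 this share was lowest without M3 and highest without M5. Chosen after the values were seen were the marker sums without some genes, the CV of the essential sum with each fish left out, the mylpfb mean without each fish, between 137 and 560, and the heavy chain ratios, between 2.07 and 2.31 for mylpfa and 1.65 and 1.81 for the essential chains.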

Other observations

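The genes beside the light chains on their linkage groups were far lower in the same libraries. The light chains ranked 2, 8 and 28 per kb among all listed transcripts, so nearly any gene beside them would be lower. Next to mylpfa, 260 bases away, tbc1d10b had 56.1 normalized counts per kb (mean of 5 fish), and pheta2 on the other side had a mean of 1.11 normalized counts. Beside mylz3, lancl1 had 428 normalized counts per kb, a ratio of 708 between the light chain and its neighbour. myl1 lay between map2, 146 bases away, with a mean of 4.36 normalized counts, and cps1, with 58.2 normalized counts per kb. In the human genome MYL1 also lies in the same stretch as MAP2, LANCL1 and CPS1. In the tilapia table lancl1 stood beside mylz3 and map2 and cps1 beside myl1.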
